A study of Mus musculus with 12 samples.

Results

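The genes described here are the nuclear genes of respiratory complexes II to V. Members were taken by symbol: Sdha, Sdhb, Sdhc and Sdhd for complex II, symbols that start with Uqcr for complex III, with Cox4i, Cox5, Cox6, Cox7 or Cox8 for complex IV, and with Atp5 for complex V. Of 54 matching genes, 6 carried a pseudogene symbol and were left out. This left 48 members of the 46072 genes in the authors' deposited table, with 4 in complex II, 8 in complex III, 19 in complex IV and 17 in complex V. The rule used names only and no measured value, but it was set with earlier results of these data known. Cox7a2l and Atp5s, the latter known in mammals as coupling factor B, are no core subunits of the enzymes and were counted by symbol. Cox7a2l has been described as joining complexes III and IV into larger assemblies, and whether it does so in these cells was not tested. Cyc1, Ndufa4 and Usmg5 are subunits whose symbols fall outside the rule, and they are described after the members.

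The mitochondrial respiratory chain passes electrons from nutrients to oxygen. Complex II (succinate dehydrogenase) oxidises succinate and reduces ubiquinone, complex III (the cytochrome bc1 complex) passes electrons from ubiquinol to cytochrome c, and complex IV (cytochrome c oxidase) passes them on to oxygen. Complexes III and IV pump protons across the inner membrane, and complex V (ATP synthase) uses the gradient to make ATP. Complex II is encoded wholly in the nucleus, whereas complexes III to V also hold subunits of the mitochondrial genome. Osteoclasts, the multinucleated cells that resorb bone, are known for being rich in mitochondria.

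RNA was sequenced from 3 cell types grown from bone marrow of C57/BL/6J mice aged 6 to 8 weeks, 4 libraries each. Osteoclasts (Oc) were grown with RANKL at 50 ng/ml beside M-CSF at 30 ng/ml and freed of mononucleated cells with Accutase, immature dendritic cells (Dc) were grown in GM-CSF (20 ng/ml), and macrophages (Mo) were grown in M-CSF alone (30 ng/ml). Precursors of osteoclasts and macrophages had first spent 5 days at 100 ng/ml of M-CSF, a step the labels do not give for dendritic cells, and differentiation took 8 to 10 days. All mice were of 1 strain with no genetic change named, and in each of 4 independent marrow extractions the 3 cell types came from the same mouse.

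The authors' means summed to 24242539.6 normalised reads in osteoclasts, 27731759 in dendritic cells and 25022062 in macrophages, and size factors recovered for the 12 libraries lay between 0.975 and 1.04. Most markers followed the labels: Ctsk, the bone-resorbing protease cathepsin K, was at 87805 in osteoclasts, 1472 in dendritic cells and 137 in macrophages, and Ccl17, a chemokine of dendritic cells, was at 64.2, 69229.6 and 64.9 in the same order. Ocstamp, a fusion gene listed as an osteoclast marker, did not: it was at 1589 in osteoclasts, 2583 in dendritic cells and 14.4 in macrophages. The macrophage marker Fcgr1 did not either, at 83.4, 2944 and 1812 in the same order. The 5 macrophage markers summed to 64027 in osteoclasts, 55043 in dendritic cells and 133969 in macrophages. Neutrophil markers were not absent from the dendritic cell cultures, where all 5 were above 0 and summed to 10174, against 74.6 in osteoclasts and 64.4 in macrophages. Camp was at 0 in macrophages and Elane at 0 in osteoclasts. Markers of other cells thus moved with the dendritic cell group, and their part in the values below was not tested. In bulk RNA, fewer cells of a type and less RNA per cell cannot be told apart.

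Most transcripts of the respiratory complexes were higher in both osteoclasts and dendritic cells than in macrophages. Of 44 members tested, 37 were higher and 2 lower in osteoclasts than in macrophages at an adjusted p under 0.05 in the authors' deposited table (DESeq2, Benjamini-Hochberg), and 5 did not pass. Over all genes tested in that comparison, 14.5% were called higher and 14.7% lower. The median log2 fold change of the members was 0.60, which is 1.52-fold, beside -0.03 over all 17822 genes tested. Between dendritic cells and macrophages, 35 members were higher, 1 was lower and 8 did not pass, against 20.3% and 16.4% of all genes called higher and lower. Here the median log2 fold change was 0.66, beside 0.05 over all genes tested. Both comparisons use the same macrophage libraries, so they are not independent of each other.

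Fewer members were called between osteoclasts and dendritic cells. There, 4 members were higher in osteoclasts, 10 were lower and 30 did not pass, with a median log2 fold change of -0.03 beside -0.05 over all genes tested. Over all genes in that comparison, 16.8% were called higher and 20.1% lower, beside 9.09% and 22.7% of the members, so the share of lower calls was near the background and that of higher calls below it. Scaling the cell types to equal totals shifts every log2 fold change of osteoclasts over dendritic cells by 0.19. The calls then become 7 higher and 4 lower, with Sdhb, Uqcrb and Cox7a2 added to the higher ones. The median becomes 0.16, beside 0.15 over all genes tested. No direction can thus be given for the members as a whole between these cell types. Shares of all genes called were not computed under equal totals. The same scaling shifts dendritic cells over macrophages by -0.15 and osteoclasts over macrophages by 0.05, and the counts of higher members there become 30 and 38. Atp5f1, Atp5g2, Cox4i1, Sdha and Uqcrc1 then no longer passed between dendritic cells and macrophages.

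Of the 39 members with a mean of at least 100 in all 3 cell types, all had their lowest mean in macrophages, and 37 with equal totals. The highest mean was in osteoclasts for 17 and in dendritic cells for 22, a tally that becomes 28 and 11 with equal totals. Their folds of osteoclasts over macrophages ran from 1.11 (Cox7a2l) to 2.22 (Atp5g3), and those of dendritic cells over macrophages ran from 1.09 (Sdhc) to 2.36 (Uqcrfs1). The members together held 0.689% of all normalised reads in osteoclasts, 0.624% in dendritic cells and 0.431% in macrophages. Atp5a1 and Atp5b, the catalytic-head subunits of ATP synthase, made up 29.8%, 28.6% and 27.3% of these reads in the same order, as shares of reads and not per length.

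**Figure D1:**
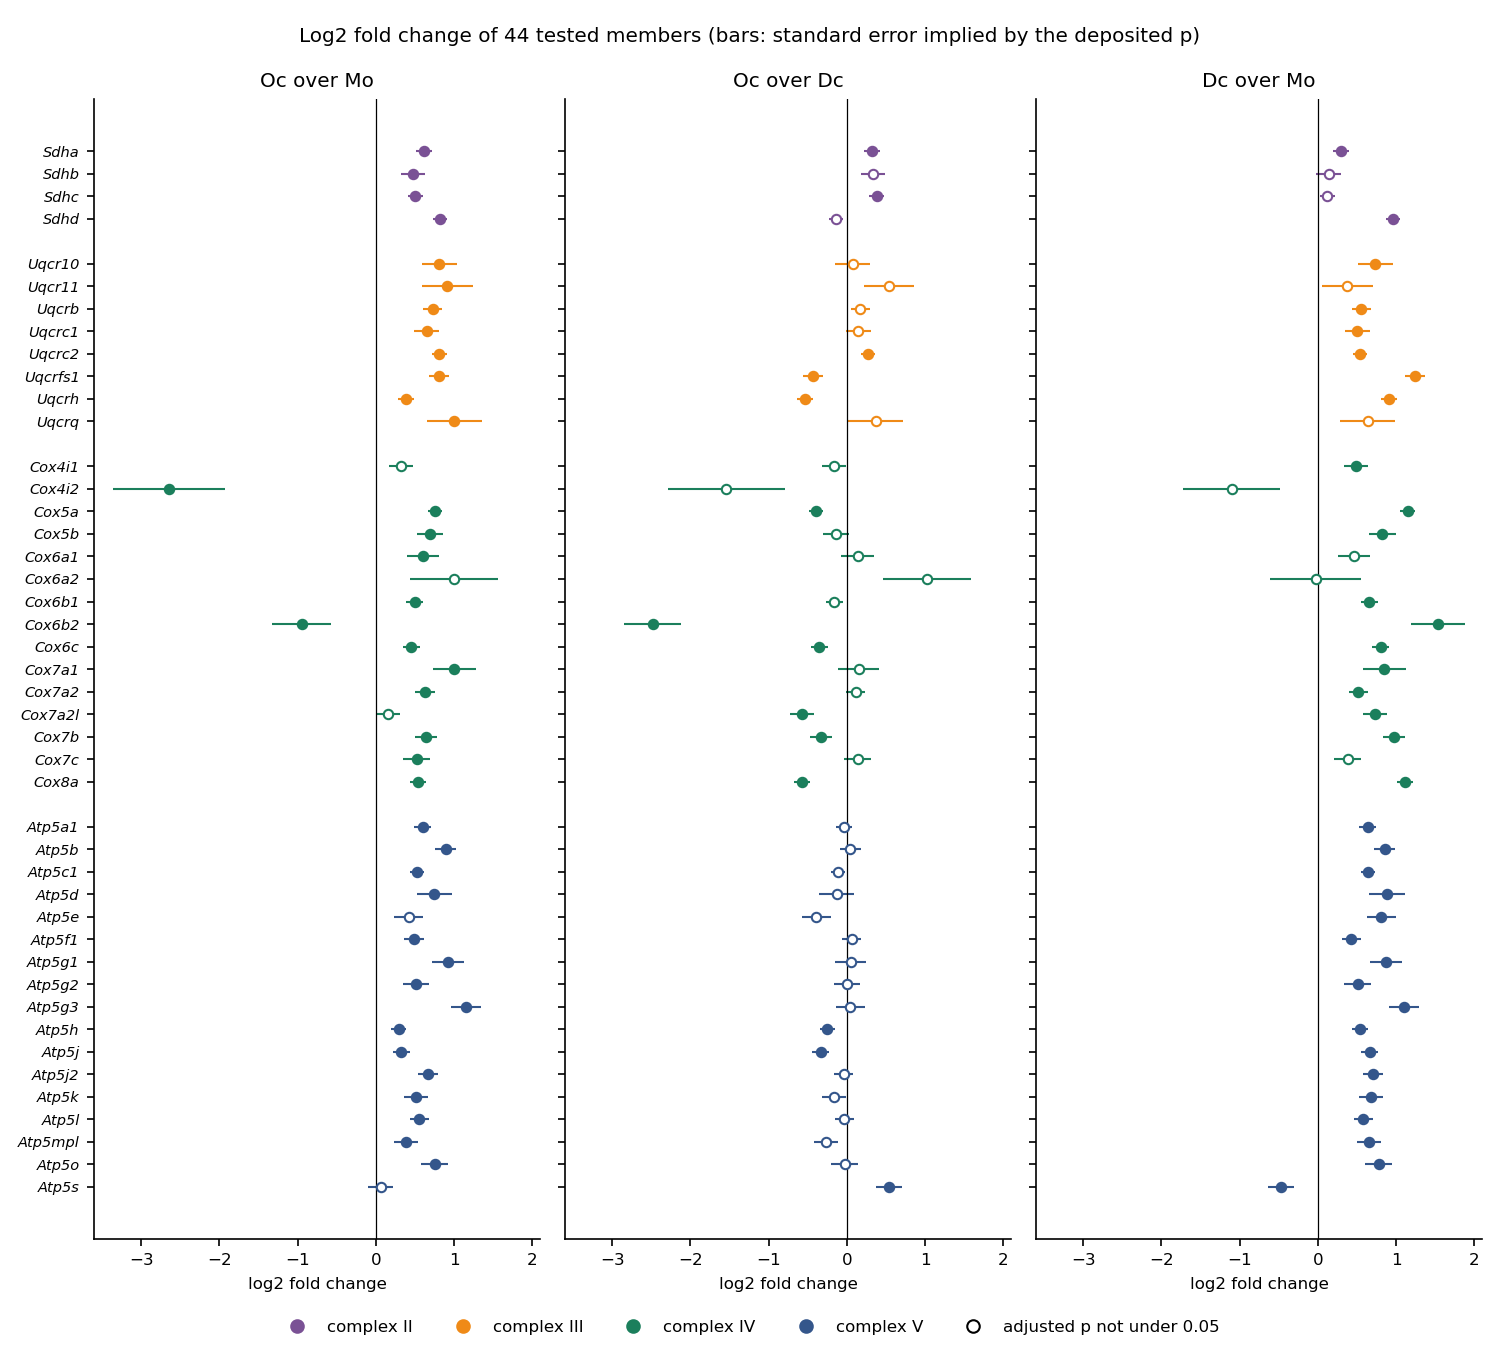
Log2 fold change of each of the 44 tested members (rows, by complex) for osteoclasts over macrophages, osteoclasts over dendritic cells and dendritic cells over macrophages; bars are the standard error implied by the deposited p, and open symbols did not reach an adjusted p under 0.05. Most members lie to the right of 0 in the comparisons with macrophages (medians 0.60 and 0.66), and they lie on both sides of 0 between osteoclasts and dendritic cells (median -0.03).

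The promoters of 4 members are shown as examples, and no link between motifs and expression was tested. Per complex, the member with the smallest p for osteoclasts over macrophages was taken among those eligible. Eligible members had 1 RefSeq window (GRCm38.p6), a motif match in the 250 bases before the start and a place off the chromosomes not printed here. Each line gives the 250 bases before the start site, 5′ to 3′ on the gene's strand, with motif letters in capitals. The printed stretch of Sdhd lies at chr9:50603850-50604099 (minus strand), Uqcrfs1 at chr13:30545317-30545566 (minus strand), Cox6b1 at chr7:30626115-30626364 (minus strand) and Atp5g3 at chr2:73911327-73911576 (minus strand).
Sdhd: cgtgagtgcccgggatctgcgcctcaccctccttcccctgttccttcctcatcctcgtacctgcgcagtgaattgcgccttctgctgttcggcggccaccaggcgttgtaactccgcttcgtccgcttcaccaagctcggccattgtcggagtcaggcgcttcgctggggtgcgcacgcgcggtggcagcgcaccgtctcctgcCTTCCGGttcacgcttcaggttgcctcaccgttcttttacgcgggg
Uqcrfs1: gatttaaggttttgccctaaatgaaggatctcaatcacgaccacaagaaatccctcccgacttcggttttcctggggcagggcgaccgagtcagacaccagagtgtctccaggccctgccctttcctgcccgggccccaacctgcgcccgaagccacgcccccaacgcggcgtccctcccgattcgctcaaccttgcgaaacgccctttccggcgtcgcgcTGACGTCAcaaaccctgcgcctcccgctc
Cox6b1: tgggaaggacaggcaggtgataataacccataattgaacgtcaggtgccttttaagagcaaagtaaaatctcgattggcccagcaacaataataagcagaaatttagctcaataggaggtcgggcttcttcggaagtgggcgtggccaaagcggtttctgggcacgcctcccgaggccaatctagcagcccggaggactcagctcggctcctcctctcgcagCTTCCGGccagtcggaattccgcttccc
Atp5g3: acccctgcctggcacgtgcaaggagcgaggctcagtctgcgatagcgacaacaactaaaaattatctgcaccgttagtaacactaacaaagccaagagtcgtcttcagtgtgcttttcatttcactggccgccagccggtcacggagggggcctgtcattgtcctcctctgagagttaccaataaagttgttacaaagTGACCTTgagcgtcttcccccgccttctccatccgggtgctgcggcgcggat
The capitals mark CCGGAAG, a letter string bound by ETS factors such as GABP, read on the reverse strand at -46 of Sdhd and -28 of Cox6b1. In Uqcrfs1 they mark TGACGTCA, the cyclic AMP response element, at -29, and in Atp5g3 the ERR site AAGGTCA on the reverse strand at -52.

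Windows of 300 bases (250 before to 50 after the start) were given for 36 of the 48 members and for 27025 genes in all, and 5 motifs were searched on both strands. CCGGAAG was in 33.3% of these members and in 9.93% of all genes with a window, whether expressed here or not. Shares over genes of like expression were not computed. The NRF1 core GCGCATGCG was in 16.7% of members (Uqcr11, Uqcrc1, Cox6a1, Atp5g2, Atp5k and Atp5l) and 1.95% of all. AAGGTCA was in 13.9% and 5.38%, the YY1 string AAGATGGC in 8.33% and 3.19%, and TGACGTCA in 2.78% and 2.03%. At least 1 of the 5 strings was in 18 of 36 members, and in 20.3% of all genes. Atp5k and Atp5l each held 3 of the strings, whereas the windows of Sdha, Cox5a, Cox5b and Atp5b held none. The window of Sdhd also held AAGGTCA, outside the printed stretch. These are matches of letters and not measured binding sites.

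Levels of different genes were set side by side per kilobase of exon. In osteoclasts, the members of at least 100 spanned from 117 mean normalised reads per kilobase for Atp5l to 8149.9 for Cox6b1. Such spans depend on the annotated length, and which transcripts were expressed was not tested. The annotated transcripts of Atp5l held 6487 different runs of 50 bases, against 751 for Cox6b1. In complex V of osteoclasts, the highest level over the lowest was 61.0 with all exons and 120 with the longest transcript. Median levels per kilobase in osteoclasts, dendritic cells and macrophages were 2081, 1659 and 1409 for complex II, and 1877, 1782 and 1096 for complex III. They were 3170.1, 3994 and 2026 for complex IV, and 1297, 1474 and 787 for complex V. Complexes II and III thus had their highest median in osteoclasts and complex IV in dendritic cells, with the authors' size factors and with equal totals. For complex V the order of osteoclasts and dendritic cells turned with equal totals, where the medians were 53.5 and 53.2 CPM per kilobase. With the longest transcript in place of all exons, the medians for complex II became 3275, 2609 and 2150.5 and those for complex IV 4402, 4844 and 2839.6, in the same order of cell types. The ranks of the 39 members under both lengths correlated with a Spearman rho of 0.936 in osteoclasts, 0.921 in dendritic cells and 0.935 in macrophages, a description across genes that share libraries.

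**Figure D2:**
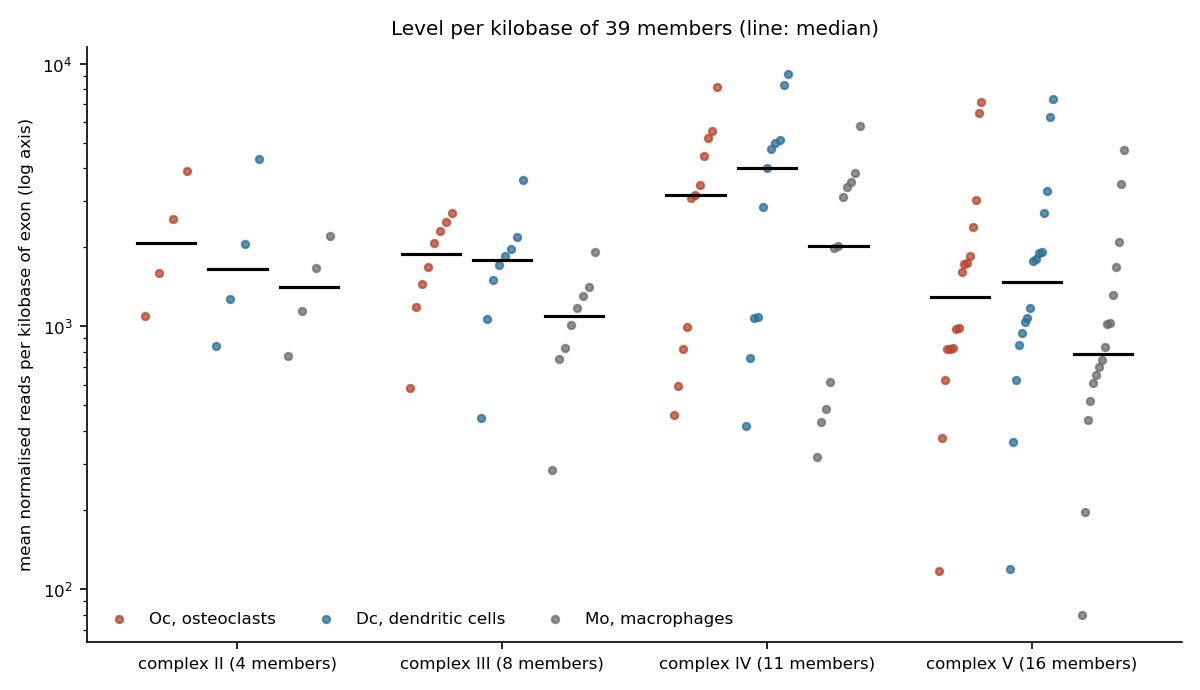
Mean normalised reads per kilobase of exon (log axis) for the 39 members of at least 100 in every cell type, by complex and cell type; each point is 1 gene and each line a median. In complex V the points span from 117 to 7122 in osteoclasts, and the macrophage median is the lowest of the 3 in every complex.

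All 4 genes of complex II were higher in osteoclasts than in macrophages. Counts of calls per complex, here and below, are to be read against the shares over all genes given above. Sdha, the flavoprotein that holds the succinate site, had means of 10583 in osteoclasts, 8466 in dendritic cells and 6890.3 in macrophages. Its log2 fold change of osteoclasts over macrophages was 0.62 ± 0.10, adjusted p = 2.38e-08 (SE implied by the deposited p), and that of dendritic cells over macrophages was 0.30 ± 0.10, adjusted p = 0.0115. Sdhc and Sdhd anchor the enzyme in the membrane and bind ubiquinone, and they went apart in dendritic cells. Sdhd was at 4809 in osteoclasts, 5312 in dendritic cells and 2725 in macrophages, and its log2 fold change was 0.82 ± 0.09, adjusted p = 7.68e-18 for osteoclasts over macrophages and 0.96 ± 0.09, adjusted p = 2.82e-25 for dendritic cells over macrophages. Sdhc was at 3559, 2725 and 2502 in the same order, higher in osteoclasts than in macrophages (0.51 ± 0.09, adjusted p = 1.27e-06) and than in dendritic cells (0.38 ± 0.09, adjusted p = 2.33e-04). Between dendritic cells and macrophages its difference of 0.12 ± 0.09 did not pass (adjusted p = 0.342).

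Reads of single libraries, lettered a to d by falling size factor within a cell type, were recovered from the means where possible. They were found for Sdhc in dendritic cells (3080.0, 2521, 2574 and 2725 normalised reads) and macrophages (2218, 2715, 2510.1 and 2565), and these overlapped. The iron-sulfur subunit Sdhb, at 3574, 2833 and 2571, was higher in osteoclasts than in macrophages (0.47 ± 0.16, adjusted p = 0.0115), and its difference from dendritic cells, 0.33 ± 0.16, did not pass (adjusted p = 0.0803). Between dendritic cells and macrophages Sdhb had 0.14 ± 0.16, adjusted p = 0.550, the largest p of the complex. Sdha rose in osteoclasts over dendritic cells too (0.32 ± 0.10, adjusted p = 0.00557), whereas Sdhd, at -0.14 ± 0.09, did not pass (adjusted p = 0.214). Over the complex, the calls were 2 higher and 0 lower for osteoclasts over dendritic cells, and 2 higher and 0 lower for dendritic cells over macrophages.

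Complex III had the highest median log2 fold change of the 4 complexes for osteoclasts over macrophages, at 0.81, with all 8 members higher. Uqcrc2, a core protein of the matrix side, had means of 5273 in osteoclasts, 4369.6 in dendritic cells and 3002 in macrophages and a log2 fold change of 0.81 ± 0.09, adjusted p = 7.34e-16 for osteoclasts over macrophages. It was 0.27 ± 0.09, adjusted p = 0.0136 for osteoclasts over dendritic cells, a call lost at 0.01, and 0.54 ± 0.09, adjusted p = 9.16e-08 for dendritic cells over macrophages. Uqcrfs1, the Rieske iron-sulfur protein that carries electrons towards cytochrome c, was at 1976 in osteoclasts, 2674 in dendritic cells and 1127 in macrophages. Its 4 osteoclast libraries had 1915, 1792, 2319 and 1878 normalised reads, against 1040.1, 1247, 1024 and 1199 in macrophages, with no overlap (exact two-sided permutation p = 0.0286, the smallest that 4 against 4 can give). Uqcrfs1 was higher still in dendritic cells, with a log2 fold change of 1.24 ± 0.13, adjusted p = 3.44e-21 over macrophages and -0.43 ± 0.13, adjusted p = 0.00233 for osteoclasts over dendritic cells, a call lost with equal totals.

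Uqcrh, the acidic hinge protein near cytochrome c1, followed the same order, at 3086, 4464 and 2364 in osteoclasts, dendritic cells and macrophages. It fell in osteoclasts relative to dendritic cells (-0.53 ± 0.10, adjusted p = 9.43e-07) and rose in dendritic cells over macrophages (0.91 ± 0.10, adjusted p = 2.50e-18). Uqcrb, which helps to bind ubiquinone, had 1352, 1380.1, 1661 and 1523 normalised reads in osteoclasts, 1489, 1286, 1306 and 1167 in dendritic cells and 769, 946, 863 and 982 in macrophages. Its macrophage libraries lay below all libraries of both other cell types, while osteoclasts and dendritic cells overlapped. Log2 fold changes of Uqcrb were 0.73 ± 0.12, adjusted p = 4.05e-08 for osteoclasts over macrophages and 0.56 ± 0.12, adjusted p = 2.68e-05 for dendritic cells over macrophages.

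The core protein Uqcrc1 (4878, 4405 and 3099.7) and the small subunit Uqcr10 (1346, 1277 and 762) were higher than in macrophages in both cell types, and neither passed between osteoclasts and dendritic cells. Uqcr11 and Uqcrq are small subunits whose recovered libraries varied widely. Reads of Uqcr11 were recovered in macrophages only (715, 1188, 1047 and 675 normalised reads), and those of Uqcrq in dendritic cells and macrophages only. In dendritic cells, Uqcrq had 1331, 428, 615 and 907 normalised reads in its 4 libraries, against 329, 752, 579.8 and 421 in macrophages. The groups overlapped, and the log2 fold change of 0.64 ± 0.35 did not pass (adjusted p = 0.156). In osteoclasts over macrophages, Uqcrq (1.01 ± 0.35, adjusted p = 0.0189) and Uqcr11 (0.92 ± 0.32, adjusted p = 0.0188) passed at 0.05 and no longer at 0.01. Between dendritic cells and macrophages, Uqcr11 had 0.38 ± 0.32, adjusted p = 0.398, the largest p of the complex there, and the largest between osteoclasts and dendritic cells was that of Uqcr10 (0.08 ± 0.23, adjusted p = 0.846).

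In complex IV, 10 of 15 tested members were higher in osteoclasts than in macrophages, 2 were lower and 3 did not pass, and 11 were higher in dendritic cells than in macrophages. Between osteoclasts and dendritic cells none was higher and 6 were lower: Cox5a, Cox6b2, Cox6c, Cox7a2l, Cox7b and Cox8a. These made up 40.0% of the 15 tested members, beside 20.1% of all genes called lower. With equal totals, Cox5a, Cox6c and Cox7b no longer passed and Cox7a2 passed as higher in osteoclasts. Cox5a is a matrix-side subunit, and its libraries had 1808, 1554, 1725 and 1814 normalised reads in osteoclasts, 2410.4, 2336, 2024 and 2289 in dendritic cells and 1014, 1105, 980.3 and 983 in macrophages. No library of a cell type overlapped with one of another, so that dendritic cells stood highest and macrophages lowest. Its log2 fold change was 0.76 ± 0.09, adjusted p = 4.08e-14 for osteoclasts over macrophages, 1.15 ± 0.09, adjusted p = 3.53e-33 for dendritic cells over macrophages and -0.39 ± 0.09, adjusted p = 1.12e-04 for osteoclasts over dendritic cells. Exons of Cox5a overlap those of Gm26631 on the opposite strand, whose means were 800.3, 1116 and 479.7 in the same order, and without a stated strand setting reads of the pair cannot be told apart.

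Cox8a, a small membrane subunit, was at 3437 in osteoclasts, 5128 in dendritic cells and 2365 in macrophages, with 0.54 ± 0.10, adjusted p = 1.85e-06 for osteoclasts over macrophages, 1.11 ± 0.10, adjusted p = 1.37e-26 for dendritic cells over macrophages and -0.58 ± 0.10, adjusted p = 9.73e-08 for osteoclasts over dendritic cells. Cox6c, another membrane subunit, had 2005, 2021, 2198 and 2259 normalised reads in osteoclasts, 3048, 2534, 2485 and 2749 in dendritic cells and 1355, 1745, 1493 and 1583 in macrophages, again without overlap (0.81 ± 0.11, adjusted p = 2.02e-12 for dendritic cells over macrophages). Cox7b, on the X chromosome, was at 3848, 4849 and 2459 in the same order and passed narrowly between osteoclasts and dendritic cells (-0.33 ± 0.14, adjusted p = 0.0478). Cox7a2 did not follow Cox8a, Cox6c and Cox7b: its osteoclast libraries (2914, 2714, 2942 and 3034) overlapped with those of dendritic cells (3046, 2545, 2413 and 2721), and both lay above macrophages (1527, 2109, 1811 and 2037). Libraries of Cox5b and Cox7c overlapped between osteoclasts and dendritic cells too. Cox7a2 had 0.63 ± 0.12, adjusted p = 4.13e-06 for osteoclasts over macrophages.

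Cox7a2l was called only in the comparisons with dendritic cells, with means of 5085 in osteoclasts, 7592 in dendritic cells and 4577 in macrophages. Its log2 fold change was -0.58 ± 0.15, adjusted p = 7.60e-04 for osteoclasts over dendritic cells and 0.73 ± 0.15, adjusted p = 1.25e-05 for dendritic cells over macrophages, whereas osteoclasts over macrophages, at 0.15 ± 0.15, did not pass (adjusted p = 0.516). Cox4i1, the regulatory subunit that binds ATP, gave 0.32 ± 0.16, adjusted p = 0.105 for osteoclasts over macrophages and 0.49 ± 0.16, adjusted p = 0.00639 for dendritic cells over macrophages, with means of 6893, 7714 and 5500.3. The remaining general subunits were all higher in osteoclasts than in macrophages. They were Cox5b (1574, 1727 and 971), Cox6a1 (3644, 3309 and 2389), Cox6b1 (5770.2, 6455 and 4078) and Cox7c (519, 472 and 361), given for osteoclasts, dendritic cells and macrophages. Cox6a1 and Cox7c did not pass between dendritic cells and macrophages, at adjusted p = 0.0650 and 0.0713.

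Complex IV has isoforms that other tissues use, and all were rare here. Cox6c2, Cox7b2 (a testis isoform), Cox8b (a heart and muscle isoform) and Cox8c (a testis isoform) were listed at 0 in all 3 cell types. Cox4i2, the isoform known from lung and from low oxygen, was the only member whose order was macrophages, dendritic cells, osteoclasts from high to low. It had 0.993, 0.994, 3.00 and 0 normalised reads in the osteoclast libraries, 3.05, 2.04, 8.17 and 5.13 in dendritic cells and 5.75, 18.5, 6.82 and 10.8 in macrophages. Osteoclasts and macrophages did not overlap, and the deposited log2 fold change was -2.64 ± 0.72, adjusted p = 0.00153. Counts this low, 1, 1, 3 and 0 reads in the osteoclast libraries, leave the size of the fold uncertain. The deposited value also lies nearer to 0 than the log2 ratio of the means, which was -3.07.

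Cox6b2, the testis isoform of the subunit on the intermembrane side, was highest in dendritic cells. Its libraries had 12.9, 11.9, 23.0 and 18.1 normalised reads in osteoclasts, 133, 75.3, 91.9 and 88.2 in dendritic cells and 26.8, 50.6, 13.6 and 39.3 in macrophages. Dendritic cells lay above all libraries of both other cell types, and osteoclasts overlapped with macrophages. The log2 fold change was -2.48 ± 0.37, adjusted p = 1.48e-10 for osteoclasts over dendritic cells and 1.54 ± 0.35, adjusted p = 5.68e-05 for dendritic cells over macrophages. For osteoclasts over macrophages it was -0.95 ± 0.38, adjusted p = 0.0439, a call that was lost without the filter on low counts, with equal totals and at 0.01. The testis markers Prm1 and Tnp1 were at 0 in every cell type.

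Cox7a1, the heart and muscle isoform, had 80.5, 51.7, 76.1 and 79.6 normalised reads in osteoclasts, 65.1, 49.9, 64.3 and 79.0 in dendritic cells and 24.9, 55.5, 30.2 and 31.4 in macrophages. In macrophages 3 libraries lay at 31.4 or less and library b at 55.5, so that both comparisons with macrophages overlapped although the authors' table called them: 1.00 ± 0.27, adjusted p = 0.00168 for osteoclasts and 0.85 ± 0.28, adjusted p = 0.00741 for dendritic cells. Exact two-sided permutation over libraries gave p = 0.0571 for each. Between osteoclasts and dendritic cells it had the largest p of the complex (0.15 ± 0.26, adjusted p = 0.710). Cox6a2, another muscle isoform, had 44.7, 30.8, 11 and 8.06 in osteoclasts, 6.10, 8.14, 17.4 and 12.3 in dendritic cells and 7.67, 18.5, 14.6 and 3.93 in macrophages, and passed in no comparison (adjusted p = 0.184 for osteoclasts over macrophages, 0.153 for osteoclasts over dendritic cells and 0.986 for dendritic cells over macrophages in DESeq2). The 3 muscle markers Myh7, Ckm and Tnnt2 summed to 1.99 in osteoclasts, 9.97 in dendritic cells and 1.70 in macrophages.

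Within each pair of isoforms the general one held nearly all reads. Cox7a1 made up 2.42% of the reads of Cox7a1 and Cox7a2 in osteoclasts, 2.35% in dendritic cells and 1.86% in macrophages. For Cox6b2 within its pair the shares were 0.285%, 1.48% and 0.793%, for Cox6a2 0.645%, 0.331% and 0.466%, and for Cox4i2 0.0181%, 0.0595% and 0.190%, in the same order. These shares are of reads and not per length.

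**Figure D3:**
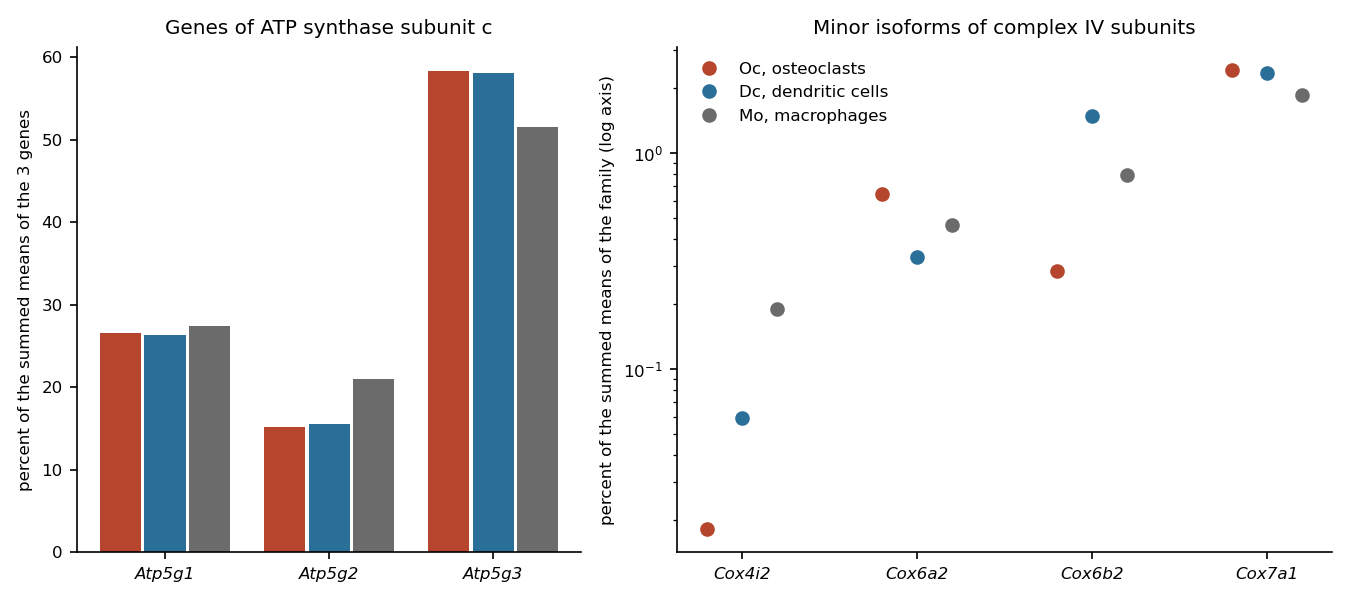
Left, share of each of the 3 subunit c genes in their summed means; right, share of 4 minor complex IV isoforms within their family (log axis), for osteoclasts, dendritic cells and macrophages. Atp5g3 holds 58.3% in osteoclasts and 51.6% in macrophages, and Cox6b2 reaches its largest share, 1.48%, in dendritic cells.

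In complex V, 15 of 17 members were higher in osteoclasts than in macrophages, and 16 were higher and 1 lower in dendritic cells than in macrophages. The catalytic beta subunit Atp5b had means of 27429.6 in osteoclasts, 26628 in dendritic cells and 14705 in macrophages, with log2 fold changes of 0.90 ± 0.13, adjusted p = 5.99e-10 for osteoclasts and 0.85 ± 0.13, adjusted p = 1.63e-09 for dendritic cells over macrophages. Atp5a1, the alpha subunit, was at 22326, 22924 and 14715 in the same order (0.60 ± 0.11, adjusted p = 2.54e-07 for osteoclasts over macrophages). The central stalk subunit Atp5c1 was at 5784, 6241 and 3999, with 0.53 ± 0.09, adjusted p = 3.88e-08 and 0.64 ± 0.09, adjusted p = 4.78e-12 for osteoclasts and for dendritic cells over macrophages. Between osteoclasts and dendritic cells none of these head and stalk genes passed.

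Subunit c, whose ring turns in the membrane, is made from 3 genes that encode the same mature protein. Atp5g3 had the largest fold of osteoclasts over macrophages among the members of at least 100, with means of 4046 in osteoclasts, 3917 in dendritic cells and 1811 in macrophages and a log2 fold change of 1.15 ± 0.19, adjusted p = 3.46e-08. Over macrophages, dendritic cells had 1.10 ± 0.19, adjusted p = 5.70e-08 for this gene. Atp5g1 libraries had 2008, 1791, 1848 and 1715 normalised reads in osteoclasts and 670.1, 1139, 1074 and 978 in macrophages, without overlap (0.92 ± 0.20, adjusted p = 5.50e-05). Atp5g2 rose less (0.51 ± 0.17, adjusted p = 0.0109), with 1091, 946, 1011 and 1155 in osteoclasts, 1223, 748, 1148 and 1080.0 in dendritic cells and 637, 886, 714 and 709.6 in macrophages. Between osteoclasts and dendritic cells it had the largest p of the complex (0.00 ± 0.17, adjusted p = 0.998). The share of Atp5g3 in the reads of the 3 genes was 58.3% in osteoclasts, 58.1% in dendritic cells and 51.6% in macrophages, and that of Atp5g2 was 15.1%, 15.6% and 21%, again not per length. Whether these shares differ was not tested.

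The peripheral stalk subunits Atp5h and Atp5j were the complex V members that fell in osteoclasts relative to dendritic cells. Atp5h had 2336, 2213, 2511 and 2377 normalised reads in osteoclasts, 2829.7, 2794, 2861 and 2732 in dendritic cells and 1626, 1965, 1951 and 2170.0 in macrophages. Each cell type was apart from the others, dendritic cells highest. Its log2 fold change of osteoclasts over dendritic cells was -0.25 ± 0.10, adjusted p = 0.0310, and that of Atp5j was -0.34 ± 0.11, adjusted p = 0.00539, and with equal totals neither passed. Atp5f1 and Atp5o, which belong to the same stalk, had 0.06 ± 0.12, adjusted p = 0.756 and -0.03 ± 0.17, adjusted p = 0.935 there. All 4 were higher in both cell types than in macrophages, with 0.66 ± 0.11, adjusted p = 3.02e-09 for Atp5j in dendritic cells over macrophages.

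Atp5l, Atp5j2 and Atp5k are small subunits of the membrane part. Atp5l had 724, 687, 811 and 786 normalised reads in osteoclasts, 902, 690.1, 733 and 746 in dendritic cells and 441, 529, 544 and 534 in macrophages, and Atp5j2 and Atp5k likewise lay above macrophages in both cell types. None of these 3 had a library in common range with macrophages. Atp5e, the epsilon subunit of the central stalk, was higher in dendritic cells than in macrophages (0.81 ± 0.19, adjusted p = 6.33e-05), and osteoclasts over macrophages, at 0.42 ± 0.19, did not pass (adjusted p = 0.0704). Its osteoclast libraries (1507, 1246, 1439 and 1566) overlapped with those of macrophages (776, 1262, 1018 and 1226) through 1 osteoclast library, b. Atp5d, the delta subunit (3333, 3655 and 1970.3), and Atp5mpl, a small proteolipid (1189, 1434 and 906), were higher in osteoclasts than in macrophages. For Atp5mpl the call, at adjusted p = 0.0409, was lost without the filter on low counts, with upper-quartile scaling and at 0.01. Its osteoclast libraries (1025, 1119.7, 1364 and 1248) overlapped with those of macrophages (662, 998, 883 and 1079), with an exact two-sided permutation p = 0.0571.

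Atp5s ran against the rest of complex V. It had 114, 135, 118 and 122 normalised reads in osteoclasts, 68.2, 87.5, 102 and 77.9 in dendritic cells and 118, 114, 106 and 129.7 in macrophages. Dendritic cells lay below both other cell types, which overlapped. Log2 fold changes were 0.54 ± 0.16, adjusted p = 0.00400 for osteoclasts over dendritic cells, -0.48 ± 0.17, adjusted p = 0.0130 for dendritic cells over macrophages and 0.07 ± 0.16, adjusted p = 0.820 for osteoclasts over macrophages.

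Whole reads per library could be recovered from the authors' means for 21 members in osteoclasts, 20 in dendritic cells and 31 in macrophages. Above a mean of 1000 a value was kept only where a single solution existed near the usual spread, so the kept members favour genes with a usual spread. Of 21 members with reads in both osteoclasts and macrophages, 14 had all osteoclast libraries above all macrophage libraries and 1 below, against 15.0% and 12.4% of all genes recovered. For dendritic cells over macrophages it was 12 above and 1 below of 20, against 16.8% and 12.9%. Between osteoclasts and dendritic cells it was 1 above and 5 below of 18, against 15.8% and 18.5%. The 5 below were Cox5a, Cox6b2, Cox6c, Atp5h and Atp5mpl, and the authors' table called all but Atp5mpl.

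**Figure D4:**
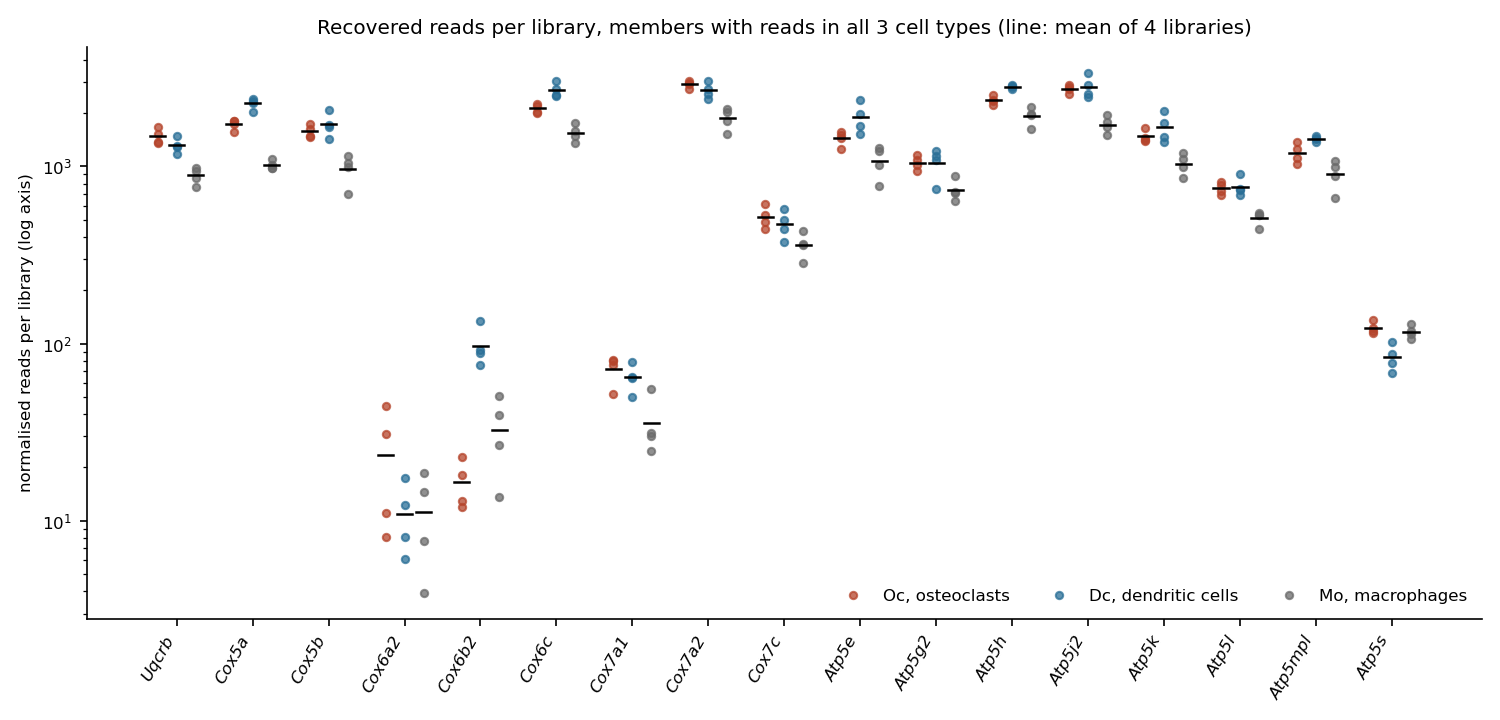
Normalised reads in each of the 4 libraries (points, log axis) of osteoclasts, dendritic cells and macrophages, for the 17 members whose reads were recovered in all 3 cell types and above 0 in every library; lines are means. Macrophage points lie lowest for most genes, Cox6b2 is highest and Atp5s lowest in dendritic cells.

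Libraries of a cell type were not alike for these genes. Median coefficients of variation of members of at least 100 were 7.56% in osteoclasts (17 members), 12.0% in dendritic cells (15) and 13.6% in macrophages (27). Among macrophages, library a was the lowest for 19 of 27 members, with a median of 0.862 of the cell type's mean, and library b was the highest for 18, with 1.11. Dendritic cell library a was the highest for 14 of 15 members, with a median of 1.16, and osteoclast library b the lowest for 12 of 17, with 0.934. Other genes of at least 100 had medians between 0.983 and 1.00 in every library, which scaling by size factors tends to bring by construction. Leaving out macrophage library a brought the median log2 ratio of osteoclasts over macrophages over 16 members with reads to 0.47, against 0.54 with all libraries. For dendritic cells over macrophages it was 0.52 without that library, 0.54 without dendritic cell library a and 0.66 with all, over 15 members.

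**Figure D5:**
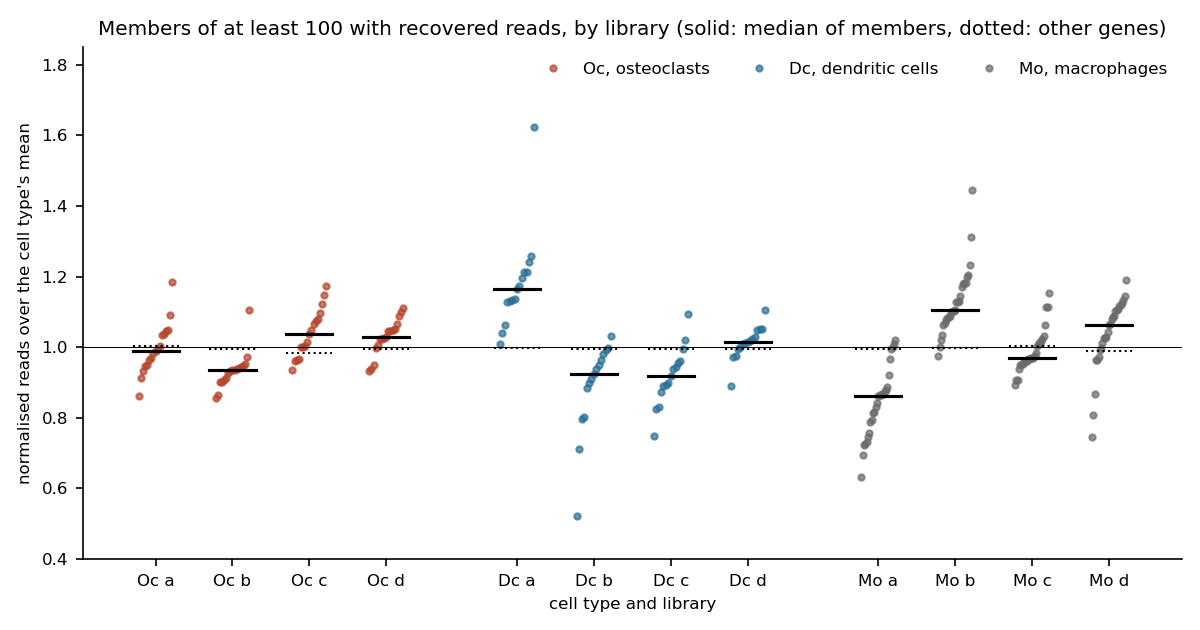
Normalised reads of each member of at least 100 over its cell type's mean, by recovered library (letters carry no replicate number); solid lines are medians of members and dotted lines those of other genes. Macrophage library a sits at 0.862 and dendritic cell library a at 1.16, while the dotted lines stay near 1.00, which scaling by size factors tends to bring by construction.

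Other genes of the respiratory chain were read from lists made with these data known. Of 36 complex I subunits, 23 were higher and 0 lower in osteoclasts than in macrophages, with a median log2 fold change of 0.50. Dendritic cells over macrophages gave 20 higher and 0 lower (median 0.37), and osteoclasts over dendritic cells gave 8 higher and 5 lower (median 0.16). Equal totals would raise that last median, by a shift of 0.19 that is larger than the median itself. As shares these are 63.9% and 0% for osteoclasts over macrophages, 55.6% and 0% for dendritic cells over macrophages and 22.2% and 13.9% for osteoclasts over dendritic cells. Over all genes the shares higher and lower were 14.5% and 14.7%, 20.3% and 16.4%, and 16.8% and 20.1% in that order of comparisons, so the last lay near the background. Ndufv1, which takes up electrons from NADH, was at 2084 in osteoclasts, 1763 in dendritic cells and 1096 in macrophages (0.92 ± 0.15, adjusted p = 1.33e-08 for osteoclasts over macrophages). Ndufv3, an accessory subunit, was at 1707, 2831 and 1619 in the same order and fell in osteoclasts relative to dendritic cells (-0.73 ± 0.15, adjusted p = 1.07e-05).

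Of the subunits and carriers outside the rule, all 5 in the table were higher in osteoclasts than in macrophages. Cyc1, the cytochrome c1 of complex III, was at 3050.3 in osteoclasts, 2399 in dendritic cells and 1304 in macrophages and had 1.22 ± 0.14, adjusted p = 1.27e-15. Cytochrome c, from Cycs, was at 1947, 1191 and 910.0 in the same order (1.09 ± 0.21, adjusted p = 2.22e-06). Ndufa4, first assigned to complex I and since found in complex IV, had another order. Its means were 3380.1 in osteoclasts, 836 in dendritic cells and 1990.2 in macrophages, so that it was lower in dendritic cells than in macrophages (-1.24 ± 0.19, adjusted p = 3.83e-10) and higher in osteoclasts than in dendritic cells (2.00 ± 0.19, adjusted p = 4.51e-25). Usmg5, a membrane subunit of ATP synthase, followed the members at 1671, 1825 and 1082. Atpif1, the inhibitor of ATP synthase, was at 5499, 3575 and 3640.1, higher in osteoclasts than in both others, at 0.59 ± 0.15, adjusted p = 6.36e-04 over macrophages and 0.62 ± 0.15, adjusted p = 2.03e-04 over dendritic cells. With Cyc1, Ndufa4 and Usmg5 counted in, members higher and lower were 40 and 2 of 47 for osteoclasts over macrophages, 6 and 10 for osteoclasts over dendritic cells and 37 and 2 for dendritic cells over macrophages.

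Assembly factors help to build the complexes without being part of them. Of 35, 15 were higher and 0 lower in osteoclasts than in macrophages (median 0.32), and 10 were higher and 1 lower in dendritic cells than in macrophages (median 0.26). Between osteoclasts and dendritic cells 9 were higher and 7 lower. Shares higher and lower were 42.9% and 0% for osteoclasts over macrophages, 28.6% and 2.86% for dendritic cells over macrophages and 25.7% and 20.0% for osteoclasts over dendritic cells, to be read against the shares over all genes given for complex I. Cox10 and Cox15, which make the heme a of complex IV, were higher in osteoclasts than in both others, with 0.82 ± 0.21, adjusted p = 6.47e-04 and 0.60 ± 0.12, adjusted p = 2.79e-06 over macrophages. Cox17, a copper chaperone, was at 489, 748 and 391 in osteoclasts, dendritic cells and macrophages and fell in osteoclasts relative to dendritic cells (-0.61 ± 0.15, adjusted p = 3.19e-04). Of the 6 subunits of the mitochondrial genome in these complexes, none was called in any comparison, which does not show that they stayed level. Their median log2 fold change was 0.45 for osteoclasts over macrophages, where mt-Co2 had no adjusted p, and 0.33 for dendritic cells over macrophages. For osteoclasts over macrophages, mt-Cytb had 0.45 ± 0.26, mt-Atp8 0.43 ± 0.21 and mt-Co1 -0.0005 ± 0.27. In the authors' deposited table (DESeq2) 1 of the 6, mt-Atp8, had an unadjusted p under 0.05, for osteoclasts over macrophages (p = 0.0411). mt-Co1, mt-Cytb and mt-Atp8 were between 16220 and 179022 in every cell type, whereas mt-Co2, mt-Co3 and mt-Atp6 were at 27.7 or less.

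Some members share sequence with other genes. Of the 48, 24 held no run of 50 bases (the read length) that occurs in transcripts of another gene in GENCODE M21. Of the rest, 19 shared such runs with a pseudogene. Shares of runs found elsewhere were highest for Cox6c2 (52.7%), which shares with Cox6c and was listed at 0, then for Atp5g2 (38.3%), Uqcrb (25.4%), Cox7c (22.1%) and Atp5h (19.9%). Exons of 12 members overlap exons of another gene on the opposite strand, among them Cox5a, Cox6a2, Cox6c, Atp5f1 and Atp5j. On the same strand, 2 members overlap another gene. Atp5g2 overlaps Mir688, which was at 0 in all cell types, and Atp5o overlaps a further gene of that symbol, for which no mean was listed. No source used here states how reads with several matches or from overlapping genes were counted, and the levels of these members carry that uncertainty.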

How the data were processed

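RNA of 12 libraries, 4 per cell type, was made with a stranded mRNA kit and sequenced in single reads of 50 bases, per the labels' protocols. The submitters' processing notes name bcl2fastq, Bowtie2, TopHat2, Cufflinks 2.1.1, DESeq2 2.13 and the build GRCm38; no source used here gives their roles, the annotation or the strand setting. The deposited table of the authors' comparisons gives, per gene, a mean normalised signal in each cell type and, for each comparison, a log2 fold change with its p-value before and after adjustment. The table holds no columns per library, so the authors' p-values (DESeq2) were used in place of a new fit. No covariate of that fit is stated, so it is not known whether cell types of the same mouse were paired in it.

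The standard error printed beside a log2 fold change was computed as its size over the normal quantile of the two-sided p, which assumes a Wald test. Alternatives adjusted the authors' p-values again with Benjamini-Hochberg over the genes tested, or shifted all log2 fold changes by a scaling factor and kept the standard errors. Because a mean is a sum of 4 whole reads each divided by a size factor, size factors and reads per library were recovered from the means, by trying all whole numbers up to a mean of 1000 and those within 1500 reads up to 3000. Those limits were chosen after seeing the data. On simulated means, 749 of 750 genes up to 1000 were recovered rightly and 0 wrongly, and above 1000 it was 887 and 2 of 1500. Libraries a to d are ordered by size factor and carry no replicate number. Single members were tested over libraries with an exact two-sided permutation test, which cannot go below p = 0.0286. Intervals of depth were not computed, since the files give means.

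Members, gene lists and tests were chosen with earlier results of these data known. Every member is named, and those given in full are, per comparison and complex, the 3 with the smallest and the 1 with the largest p, and every member under 100 in all cell types. Exon lengths came from GENCODE M21 and promoters from RefSeq. Python 3.11.15, numpy 2.4.6, pandas 2.3.3, scipy 1.17.1, numba 0.67.0 and matplotlib 3.10.9 were used.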

Additional observations from a re-analysis of the deposited data

Results flagged for a closer look

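Of 72 sets of 4 libraries, 2 held a library far from the others, where chance gives about 1 in 20 sets. Cox7a1 had 51.7 normalised reads in osteoclast library b, against 80.5, 76.1 and 79.6 in the others, a gap of 0.849 of the range, past Dixon's critical value at the 95% level. Atp5l had 441 normalised reads in macrophage library a, against 529, 544 and 534 in the others, a gap of 0.855 of the range.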

How the results depend on the processing

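Of the values under an alternative, 73 moved by less than 1.5 times, for counts, or by less than the spread between libraries, for medians. Single calls moved within such counts: for osteoclasts over macrophages 9 were lost at 0.01, and for dendritic cells over macrophages 5 were lost with equal totals. With equal totals, 28 members had their highest mean in osteoclasts (17 as deposited) and 11 in dendritic cells (22 as deposited). Members lower in osteoclasts than in macrophages numbered 2, and 1 without the filter on low counts, with at least 1 CPM, with equal totals or at 0.01, and 0 without isoforms of other tissues and members that are no subunit. For osteoclasts over dendritic cells, equal totals gave 7 higher and 4 lower members. The median log2 fold change of -0.03 became 0.16 with equal totals and 0.0126 with upper-quartile scaling, by construction of the shifts. Over all genes tested, the shifted medians were 0.15 and -0.0018. Members lower in dendritic cells than in macrophages numbered 1, and 0 at 0.01 or without those isoforms and non-subunits, and 2 with Cyc1, Ndufa4 and Usmg5. With reads recovered up to a mean of 1000 only, which leaves fewer members, those without overlap were 2 higher of 7 for osteoclasts over macrophages, 1 lower of 7 for osteoclasts over dendritic cells and 2 higher of 8 for dendritic cells over macrophages. Median levels per kilobase over the 39 members of at least 100 were 1729, 1796 and 1028 in osteoclasts, dendritic cells and macrophages, and 2753, 2504 and 1584 with the longest transcript. Leaving out 1 library at a time, the median log2 ratio over members with reads ran from 0.47 to 0.62 for osteoclasts over macrophages, from -0.21 to -0.03 for osteoclasts over dendritic cells (-0.13 with all, -0.03 without dendritic cell library a, -0.21 without library c) and from 0.52 to 0.71 for dendritic cells over macrophages. No paired analysis was possible because the table holds means per cell type and the recovered libraries carry no replicate number. Counts of calls could not be made without single libraries for the same reason. The tally of highest means and levels per kilobase with equal totals, and the alternatives with Cyc1, Ndufa4 and Usmg5, with reads up to a mean of 1000, and without members that share over 10% of their runs of 50 bases (which moved no count by over 1.5 times) were chosen after seeing the data.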

Other observations

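A relative of Ndufa4, chosen after its values were seen, differed more between dendritic cells and both other cell types than any member did. AA467197, whose RefSeq synonym is Nmes1 and whose human counterpart is a paralogue of NDUFA4, had deposited means of 29.9 in osteoclasts, 14068 in dendritic cells and 115 in macrophages. Its log2 fold change was -8.26 ± 0.55, adjusted p = 1.22e-48 for osteoclasts over dendritic cells and 6.49 ± 0.55, adjusted p = 4.36e-31 for dendritic cells over macrophages (DESeq2). Osteoclasts were lower than macrophages too (-1.77 ± 0.55, adjusted p = 0.00735). Ndufa4l2, another relative, was at 0.497 in osteoclasts, 17.4 in dendritic cells and 0.489 in macrophages, with -4.21 ± 0.84, adjusted p = 3.24e-06 for osteoclasts over dendritic cells and 4.23 ± 0.84, adjusted p = 2.65e-06 for dendritic cells over macrophages. Means this low in osteoclasts and macrophages leave the size of both folds uncertain.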
